A study of Mus musculus with 9 samples.

Results

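Mouse genes whose names end in Rik carry the clone identifiers of the RIKEN full-length cDNA collection, and most of those in a noncoding catalogue are long noncoding RNAs that have no functional name. Of the 954 such names listed in spinal cord tables of 69547 long noncoding transcripts, 1 was left out by rule, and the 492 with a mean of 5 or more counts per library were kept from the remaining 953. The other 461 lay under that minimum, and 23 of them had no count in any library. The tables cover 3 groups of 3 libraries of total RNA from whole spinal cord of wild-type C57BL/6 mice aged 7 to 9 weeks, taken on day 7. HBO cords were injured and their animals were treated with hyperbaric oxygen, in which oxygen is breathed in a pressurised chamber. Injury cords received no oxygen treatment, and control cords are labelled as having no injury, although the series design calls them sham. The labels do not say how the injury was made, what oxygen schedule was followed or whether each library is 1 animal, so p-values measure the spread between libraries, which may be technical.

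Long noncoding RNAs act in several ways that matter for reading these genes. Some are the precursors from which microRNAs or small nucleolar RNAs are cut, some are transcribed away from the start of a coding gene through a shared promoter, and some bind microRNAs or proteins. Many are produced in 1 cell type, so that in bulk cord a change in level can come with a change in the cells present. In bulk tissue, fewer cells of a type and less RNA per cell cannot be told apart. Several of the kept names have since been given functional names in RefSeq, among them 1700020I14Rik (Oip5os1, also called Cyrano), 1810026B05Rik (Chaserr) and C230004F18Rik (Cdr1os).

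The microRNAs printed here are shown because 5 of the genes described here span or flank them. Each is given 5′ to 3′ with its seed, bases 2 to 8, in capitals, and is credited to RefSeq on GRCm38.p6. F630028O10Rik spans Mir223, whose product is abundant in myeloid cells. C430049B03Rik ends upstream of Mir322, Mir503 and Mir351, with 719 bases between its end and miR-322-5p. A330023F24Rik spans Mir29b-2 and Mir29c, whose products repress collagen transcripts. C130071C03Rik spans Mir9-2, a microRNA of neural progenitors, and 2610203C20Rik spans Mir100, Mirlet7a-2 and Mir125b-1.
miR-223-3p: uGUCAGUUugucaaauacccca
miR-322-5p: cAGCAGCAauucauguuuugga
miR-503-5p: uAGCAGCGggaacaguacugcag
miR-351-5p: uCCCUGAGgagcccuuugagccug
miR-125b-5p: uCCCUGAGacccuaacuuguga
miR-29b-3p: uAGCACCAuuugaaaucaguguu
miR-29c-3p: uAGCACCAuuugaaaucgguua
miR-9-5p: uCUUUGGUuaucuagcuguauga
miR-29b-3p and miR-29c-3p share the seed AGCACCA. miR-125b-5p and miR-351-5p share the seed CCCUGAG although they lie beside different RIKEN-named genes. The seeds of miR-322-5p and miR-503-5p differ in their last base.

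RefSeq held a promoter for 258 of the 492 genes. The 3 printed here belong to genes that rose or fell in injured cord and run from 250 bases before to 50 after the start, on GRCm38.p6, 5′ to 3′ in the direction of transcription. The windows are chrX:96239676-96239975 on the plus strand for F630028O10Rik, chr6:35252460-35252759 on the plus strand for 1810058I24Rik and chr8:99416424-99416723 on the plus strand for A330008L17Rik.
F630028O10Rik: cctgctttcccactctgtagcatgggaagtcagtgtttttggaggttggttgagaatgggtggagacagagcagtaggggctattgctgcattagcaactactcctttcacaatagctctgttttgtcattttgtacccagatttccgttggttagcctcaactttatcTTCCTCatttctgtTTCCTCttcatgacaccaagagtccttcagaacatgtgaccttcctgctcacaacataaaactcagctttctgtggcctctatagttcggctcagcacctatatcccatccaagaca
1810058I24Rik: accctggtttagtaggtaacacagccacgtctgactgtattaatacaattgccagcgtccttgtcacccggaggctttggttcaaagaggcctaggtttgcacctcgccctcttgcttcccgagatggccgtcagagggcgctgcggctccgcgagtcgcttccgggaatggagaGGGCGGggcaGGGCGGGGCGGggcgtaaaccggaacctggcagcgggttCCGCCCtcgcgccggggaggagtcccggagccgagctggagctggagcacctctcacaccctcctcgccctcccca
A330008L17Rik: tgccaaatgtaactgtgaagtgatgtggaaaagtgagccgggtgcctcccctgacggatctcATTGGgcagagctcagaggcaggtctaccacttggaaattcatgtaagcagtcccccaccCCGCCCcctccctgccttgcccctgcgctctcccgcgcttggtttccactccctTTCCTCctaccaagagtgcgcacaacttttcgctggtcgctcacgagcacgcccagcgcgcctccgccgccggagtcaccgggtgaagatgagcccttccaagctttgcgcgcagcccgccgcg
Capitals mark 4 motifs searched on both strands, none of which lies inside another. They are the TATA box (TATAAA), the CCAAT box, the GC box (GGGCGG) and the core bound by ETS factors (GAGGAA). The F630028O10Rik window held the ETS core, as its complement TTCCTC, and none of the other motifs, with 2 CpG and a GC content of 45.3%. The 1810058I24Rik window held the GC box alone, with 25 CpG and a GC content of 65%. Another RefSeq window of this gene, chr6:35256741-35257040, held none of the 4 motifs, with 5 CpG and a GC content of 46%. The A330008L17Rik window held the CCAAT box, the GC box and the ETS core, with 22 CpG. Among 305 promoters of the RIKEN-named genes, 51.5% held the GC box, 38.7% the CCAAT box, 28.9% the ETS core and 7.54% the TATA box. Among all 32544 RefSeq promoters these shares were 35.9%, 37.4%, 28.1% and 13.6%. The median promoter of the RIKEN-named genes had 16 CpG, against 7 over all promoters.

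By position against GENCODE M21, which is on the build of the files (GRCm38), most of these genes lay on or beside coding genes. Classes were set by the whole span of each gene, introns included. A coding exon was touched on the other strand by 178 and on the same strand by 11. Of the rest, 103 lay inside coding introns, 72 stood head to head with a coding start within 1000 bases, and 128 were intergenic. Counting only their own exons, 167 met a coding exon on the other strand only and 8 on the same strand. Without regard to the other classes, 210 began head to head with a coding gene. GENCODE typed 126 as lincRNA, 113 as antisense, 105 as processed transcripts, 100 as TEC (awaiting experimental support) and 9 as protein coding. The sources used here do not state whether reads were counted by strand, so reads from a RIKEN-named gene and from a coding gene across it cannot be told apart.

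The listed counts summed to between 2295433 and 3148744 per library, or 17.1% to 19.5% of the totals by which the FPKM values had been scaled. The RIKEN-named genes took 25082 to 33763 of these counts, and between 467 and 484 of the 492 had a count in each library. On principal components of log2 CPM over all tested features, the first component (30.4% of variance) separated the 3 control libraries from the 6 injured ones, and the second (12.1%) set HBO replicate 3 against all others. Of 13 noncoding RNAs typical of neural tissue, 12 were listed and all of them had counts in every library. Their summed level was 6031 to 7150 CPM in HBO, 5931 to 7692 CPM in injury and 9559 to 11990 CPM in control. H19 and Dnm3os, noncoding RNAs of fetal and scar tissue, summed to 264 to 801 CPM in HBO, 207 to 725 CPM in injury and 28.4 to 36.0 CPM in control. Both sums move with the groups, and their part in the results below was not tested. The tables list noncoding RNAs only, so protein markers of cell types were not used here.

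Levels between genes were compared as FPKM, which divides by transcript length. The median gene of the 492 had 1.00 FPKM in control cord, 245 were under 1 FPKM and 13 exceeded 10 FPKM. The 8 highest in control cord included 6330403K07Rik, which GENCODE types as protein coding, with 35.6 ± 9.99 FPKM in HBO, 39.0 ± 6.64 in injury and 61.5 ± 7.94 in control (SD, n = 3 each). C330006A16Rik followed with 30.6 ± 12.8 FPKM in HBO, 38.5 ± 1.73 in injury and 43.5 ± 5.6 in control. 2610203C20Rik, the microRNA precursor, stood at 29.2 ± 1.66 FPKM in HBO, 28.4 ± 5.80 in injury and 28.6 ± 8.65 in control. 1500004A13Rik (33.2 FPKM in control), 4933431E20Rik (27.9), A830039N20Rik (16.5), 1700020I14Rik (42.8) and 2410006H16Rik (15.4) made up the rest. None of the 8 passed the test in any comparison. Neighbours in this order differed by less than their SD in several cases, such as C330006A16Rik and 1700020I14Rik, whose control libraries spread by 28.4 FPKM (SD).

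The first comparison set injured against uninjured cord. A small group of RIKEN-named genes was higher in injury, among them the precursors or neighbours of miR-223 and miR-322, an RNA inside the leukocyte gene Ptprc, and 1810058I24Rik, which encodes the micropeptide Mm47 of mouse macrophages. Others that rose lay beside genes such as Cdc5l, Rai14 and Rsbn1l. A smaller group was lower and included an RNA beside Cdh8, a neuronal cadherin gene, and 5730422E09Rik, named Mm2pr in RefSeq. With overlapping unnamed transcripts added, 5730422E09Rik lost its call, as did C430049B03Rik, the neighbour of miR-322. In counts, 406 of the 492 genes passed the filter on low counts and were tested, 14 rose, 6 fell and 386 did not pass by edgeR's quasi-likelihood test with a Benjamini-Hochberg adjusted p under 0.05 over 26602 features. The other 86 had too few counts to be tested. That is 4.93% of the tested genes, against 6.06% of all features, of which 3.63% were higher and 2.43% lower in injury. Among Gm-numbered genes, the other large set of unnamed mouse genes, 90 of 1399 (6.43%) were called. The median log2 change was 0.06 for the RIKEN-named genes and 0.01 for all features. The injury and control libraries did not overlap for 63 genes higher in injury (15.5%, against 17.9% of all features) and 55 lower (13.5%, against 18.8%). With libraries scaled by the totals from the FPKM values, 7 rose and 15 fell, against 640 and 1341 of the 26602 features. The median over all features was -0.21 on that scale.

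**Figure D1:**
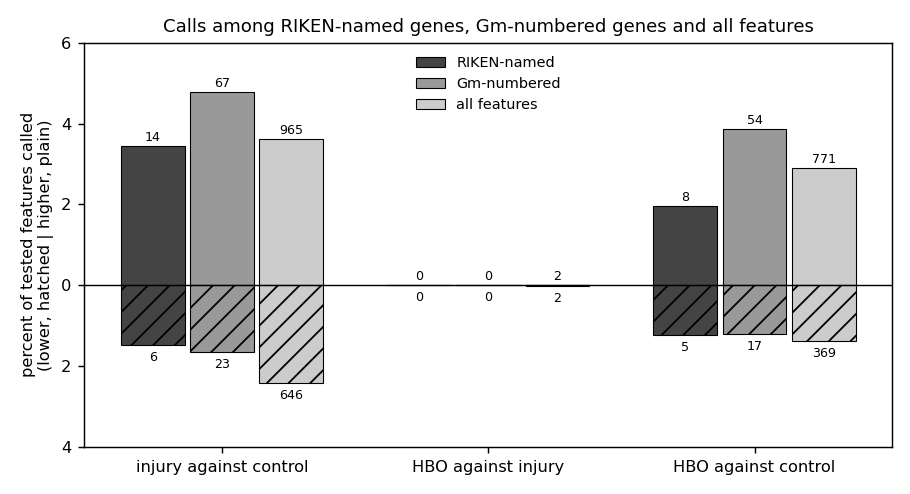
Percent of tested features called by edgeR in each comparison, with higher calls drawn upward in plain bars and lower calls downward in hatched bars, for RIKEN-named genes, Gm-numbered genes and all features. The numbers at the bars are counts, and for the RIKEN-named genes they are 14 and 6 in injury against control, 0 and 0 in HBO against injury, and 8 and 5 in HBO against control.

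F630028O10Rik (chromosome X, 96239926 to 96243636, intergenic) spans Mir223 and lies 3567 bases from Vsig4, a macrophage complement receptor gene. It had 51.6, 112.5 and 165 CPM in the HBO libraries, 118, 77.1 and 77.9 CPM in the injury libraries and 26.9, 7.94 and 25.1 CPM in the control libraries. Every HBO and injury library lay above every control library. The log2 change was 2.18 in injury against control (SE 0.51, adjusted p = 0.0436) and 2.45 in HBO against control (SE 0.52, adjusted p = 0.0390), by edgeR. C430049B03Rik (chromosome X, 53055046 to 53057190, intergenic) had 5.82, 11.7 and 8.09 CPM in HBO, 10.6, 11.9 and 6.27 CPM in injury and 0.379, 1.19 and 0.727 CPM in control. No control library exceeded 1.19 CPM, and the control libraries lay below all HBO and injury libraries, which overlapped each other. Its log2 change was 3.58 in injury against control (SE 0.51, adjusted p = 0.0157) and 3.41 in HBO against control (adjusted p = 0.0211), by edgeR. With 2 overlapping unnamed transcripts added, the log2 change was 2.38 in injury against control (adjusted p = 0.0784) and 3.10 in HBO against control (adjusted p = 0.0480).

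A130071D04Rik (chromosome 1, 138161820 to 138167683) lies inside an intron of Ptprc, which encodes CD45, the surface phosphatase of leukocytes. It had 35.3, 61.5 and 72.4 CPM in HBO, 64.1, 53.2 and 48.4 CPM in injury and 15.1, 20.6 and 21.8 CPM in control. No HBO or injury library was as low as the highest control library, and the log2 change in injury against control was 1.52 (SE 0.28, adjusted p = 0.0264 by edgeR). Reads from unspliced Ptprc RNA and from this gene cannot be told apart in these counts. 1810058I24Rik (chromosome 6, 35252654 to 35263496, intergenic) had 196, 254 and 188 CPM in HBO, 306, 236 and 211 CPM in injury and 117, 92.9 and 119 CPM in control. The lowest injured library, 188 CPM in HBO, stood above the highest control library, and the log2 change was 1.20 in injury against control (SE 0.20, adjusted p = 0.0226 by edgeR). B230354K17Rik (chromosome 17, 45433852 to 45442544) is head to head with Cdc5l, a splicing factor gene. It had 60.6, 128 and 123 CPM in HBO, 108, 121 and 81.6 CPM in injury and 27.6, 47.2 and 40.0 CPM in control, the control libraries again lying below all others. Its log2 change was 1.43 in injury against control (adjusted p = 0.0387 by edgeR), and 0.76 (adjusted p = 0.0429) with 1 overlapping unnamed transcript added. With library totals from the FPKM values it was 1.195 and the call was lost (adjusted p = 0.0571 by edgeR). 4930556M19Rik (chromosome 15, 10714836 to 10790123) is head to head with Rai14, an actin-binding protein gene, at a distance of 212 bases. It had 18.2, 20.1 and 12.9 CPM in HBO, 20.9, 20.4 and 12.6 CPM in injury and 3.03, 5.16 and 7.63 CPM in control, and its log2 change was 1.75 in injury against control (adjusted p = 0.0331 by edgeR).

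1110038B12Rik (chromosome 17, 34950238 to 34952471) spans Snord52, a box C/D small nucleolar RNA gene whose class guides ribosomal RNA methylation, and lies 3965 bases from Hspa1b, a heat shock gene. It had 19.02, 32.6 and 21.8 CPM in HBO, 42.1, 47.4 and 35.4 CPM in injury and 15.1, 15.1 and 21.4 CPM in control. The injury libraries stood above the control libraries, and the HBO libraries overlapped the control range. The log2 change was 1.27 in injury against control (SE 0.25, adjusted p = 0.0294 by edgeR) and 0.50 in HBO against control (adjusted p = 0.239 by edgeR). The remaining genes that rose were smaller or scarcer. 2510016D11Rik, inside an intron of the endolysosomal channel gene Tpcn1, rose by a log2 change of 0.90 (adjusted p = 0.0271 by edgeR). A630072M18Rik, head to head with Rsbn1l, rose by 0.68 (adjusted p = 0.0335 by edgeR); its libraries held 45.8, 50.2 and 45.3 CPM in HBO, 49.3, 42.0 and 41.7 CPM in injury and 28.0, 28.6 and 26.2 CPM in control. 3222401L13Rik, within the protocadherin cluster of chromosome 18, rose by 0.84, 5930430L01Rik by 0.87, C130089K02Rik by 0.65 and 5031425E22Rik by 0.59 (adjusted p = 0.0403, 0.0444, 0.0323 and 0.0483 by edgeR). The last 2 lie outside the rule that chose the genes named here and were added after their values were seen. With library totals from the FPKM values, 2510016D11Rik, A630072M18Rik, 3222401L13Rik and 5930430L01Rik lost their calls (adjusted p = 0.0573, 0.0913, 0.0781 and 0.0647 by edgeR). 9630028B13Rik, 997 bases from Eprs, had 4.27, 9.20 and 6.87 CPM in HBO, 11.4, 3.85 and 5.17 CPM in injury and 0, 0 and 1.45 CPM in control, with a log2 change of 3.64 (SE 0.91, adjusted p = 0.0495 by edgeR). On leaving out 1 library, this value was 3.06 to 3.93, except for 7.14 without control replicate 3, the only control library with a count, and the call held in that fit alone (1 of 9).

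**Figure D2:**
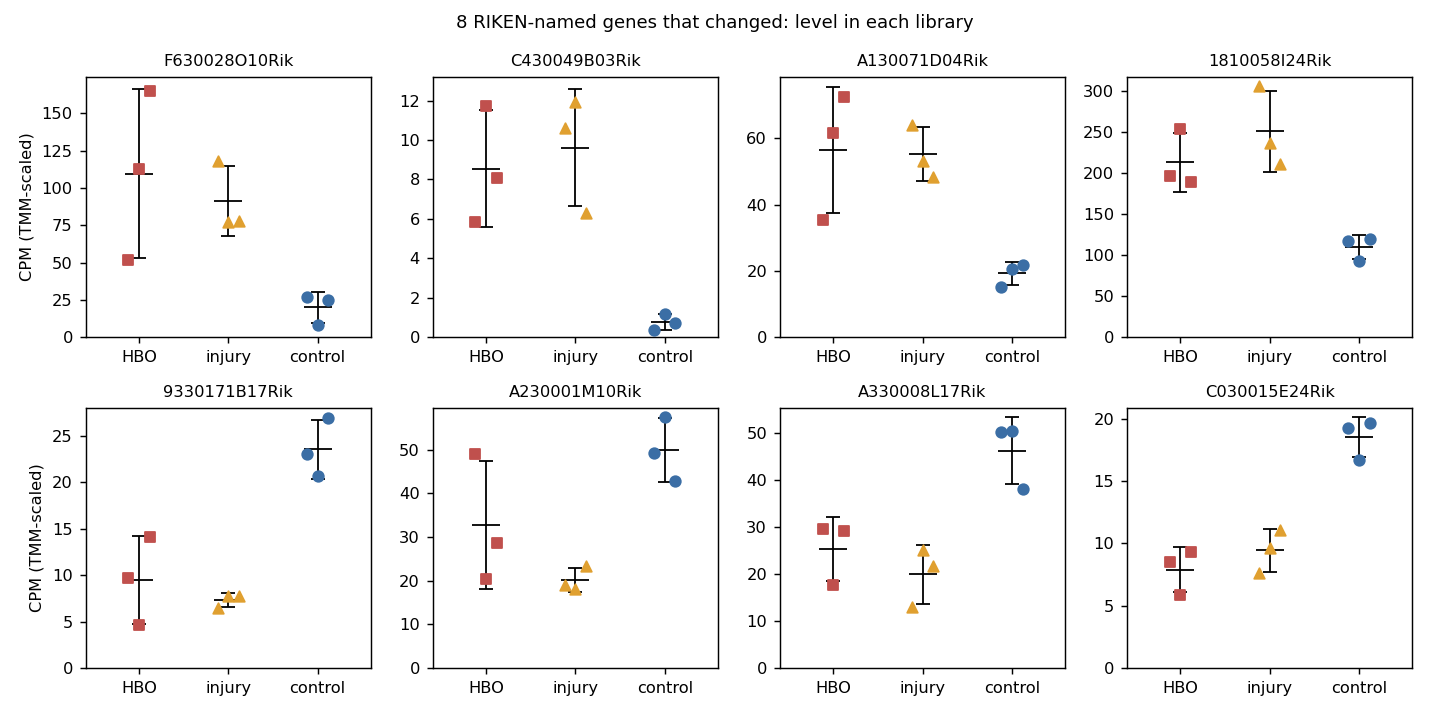
Level of 8 RIKEN-named genes in each library as TMM-scaled CPM, with HBO as squares, injury as triangles and control as circles, and the mean and SD of 3 libraries as a bar with whiskers. Control circles lie below all injured libraries for F630028O10Rik, C430049B03Rik, A130071D04Rik and 1810058I24Rik, and above them for 9330171B17Rik, A330008L17Rik and C030015E24Rik.

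The 6 genes that fell had low to moderate levels in control cord. A330008L17Rik (chromosome 8, 99416642 to 99733438) starts 171 bases from Cdh8 in the other direction. It had 29.5, 17.6 and 29.1 CPM in HBO, 12.9, 25.1 and 21.8 CPM in injury and 50.3, 50.4 and 38.2 CPM in control, and no injured library reached the lowest control library. Its log2 change was -1.22 in injury against control (SE 0.29, adjusted p = 0.0439 by edgeR). A230001M10Rik, a lincRNA in GENCODE, had 48.9, 20.5 and 28.7 CPM in HBO, 18.96, 18.1 and 23.2 CPM in injury and 49.2, 57.6 and 42.9 CPM in control. HBO replicate 1 stood within the control range, and the injury libraries all lay under it. The log2 change was -1.31 in injury against control (SE 0.30, adjusted p = 0.0409 by edgeR). The summed level of the neural noncoding RNAs, given above, was also lower in injured cord. Of the 11 tested, 3 fell and 0 rose in injury against control, where 2.43% of all features were lower. In HBO against control 5 fell and 0 rose, where 1.39% of all features were lower. The others did not pass. The part of these RNAs in the results for A330008L17Rik and A230001M10Rik was not tested.

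9330171B17Rik, on the other strand of Kif7, a Hedgehog pathway kinesin gene, had 9.71, 4.60 and 14.2 CPM in HBO, 6.45, 7.71 and 7.75 CPM in injury and 23.1, 20.6 and 26.9 CPM in control. Its log2 change was -1.68 in injury against control (adjusted p = 0.0335 by edgeR). M5C1000I18Rik, head to head with C2cd4b, fell by 1.58 on the log2 scale (adjusted p = 0.0415 by edgeR). 2900052N01Rik had 0.379, 1.93 and 3.32 CPM in injury and 16.6, 9.53 and 13.8 CPM in control. Its log2 change was -2.79 (adjusted p = 0.0473 by edgeR), and -1.48 with 3 overlapping unnamed transcripts added. 5730422E09Rik (Mm2pr in RefSeq) overlaps an exon of Hmgb1, a chromatin protein gene, on the same strand. It had 2 counts over the injury libraries and 57 over the control libraries, a ratio of 0.035 (95% exact interval 0.00413 to 0.132, counting error only), and was called at adjusted p = 0.0318 by edgeR. With 2 overlapping unnamed transcripts added its log2 change was -0.39 and the call was lost (adjusted p = 0.493 by edgeR).

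**Figure D3:**
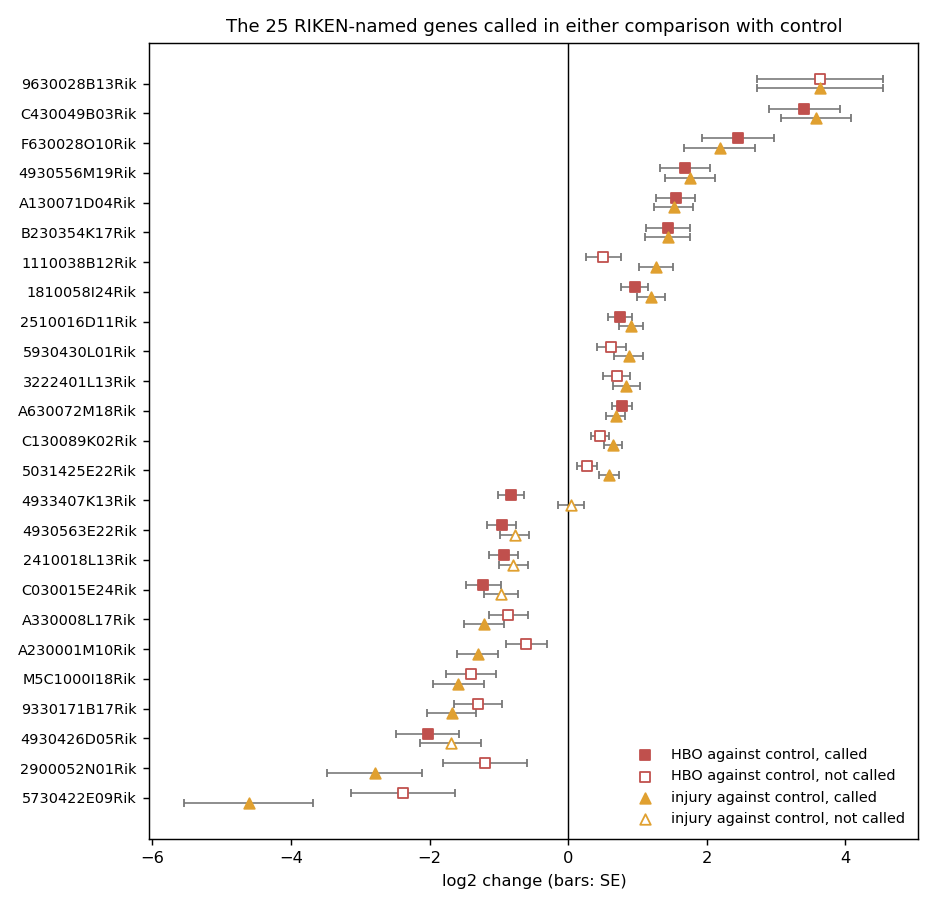
Log2 change of the 25 RIKEN-named genes called in either comparison with control, with HBO against control as squares and injury against control as triangles, filled where called and open where not, and bars of 1 SE. 9630028B13Rik (3.64 in injury against control), C430049B03Rik (3.58) and F630028O10Rik (2.18) lie furthest right, and 5730422E09Rik (2 counts in injury) lies at the far left.

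By position, 5 of 91 tested genes inside coding introns rose and 0 fell, 5 of 105 intergenic genes rose and 2 fell, and 2 of 54 head-to-head genes rose and 1 fell. Of 145 that touch a coding exon on the other strand, 1 rose and 2 fell, and of 11 on the same strand, 1 rose and 1 fell. Over all features 3.63% were higher and 2.43% lower in injury, and no test was made between classes. Away from coding exons, 15 of 246 were called (6.10%, against 6.22% of all features off coding exons).

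HBO was compared with injury to ask how hyperbaric oxygen altered the injured cord. No RIKEN-named gene passed by edgeR (lowest adjusted p = 0.856), and DESeq2 also called 0. Over all features 4 passed by edgeR (0.015%), with 0.00752% higher and 0.00752% lower in HBO. An unadjusted p under 0.05 by edgeR was found for 18 of the 406 tested genes, against 966 of 26602 features. The HBO and injury libraries did not overlap for 16 genes higher in HBO (3.94%, against 4.41% of all features) and 17 lower (4.19%, against 4.08%). The median log2 change was 0.00 and the quartiles were -0.25 and 0.24. A p that misses the threshold does not show that the levels were alike.

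Among the genes with the smallest p, 4933407K13Rik (chromosome X, 20955 bases from Pls3, an actin-bundling protein gene) had 12.4, 12.6 and 13.3 CPM in HBO and 24.6, 25.1 and 20.3 CPM in injury, with no overlap. Its log2 change was -0.87 (unadjusted p = 0.00126 by edgeR), and -0.34 with 3 overlapping unnamed transcripts added. 1110038B12Rik, the Snord52 host, stood at 19.02, 32.6 and 21.8 CPM in HBO and 42.1, 47.4 and 35.4 CPM in injury, again without overlap, and its log2 change was -0.77 (SE 0.24, unadjusted p = 0.0116 by edgeR). C130021I20Rik had a log2 change of -1.38, and -0.73 with 1 overlapping unnamed transcript added. In the upward direction, the 3 genes were A830092H15Rik with 1.83, 2810002D19Rik with 2.41 and 4930594M22Rik with 3.01. For the last 2, the log2 change was -0.034 and 0.10 with overlapping unnamed transcripts added.

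HBO against control asked how injured and oxygen-treated cord differed from uninjured cord, and it shares its control libraries with the injury comparison. By edgeR 8 genes rose and 5 fell, 3.20% of 406, against 4.29% of all features (2.9% higher and 1.39% lower in HBO). Among Gm-numbered genes 71 of 1399 (5.08%) were called. With library totals from the FPKM values 5 rose and 5 fell, against 446 and 388 over all features. The 8 that rose were F630028O10Rik and C430049B03Rik, with the values given above, A130071D04Rik by 1.55 on the log2 scale, 1810058I24Rik by 0.96, B230354K17Rik by 1.44, 4930556M19Rik by 1.68, 2510016D11Rik by 0.75 and A630072M18Rik by 0.77 (adjusted p = 0.0312, 0.0375, 0.0436, 0.0410, 0.0441 and 0.0326 by edgeR). A330008L17Rik and A230001M10Rik had log2 changes of -0.86 and -0.61 in HBO against control and did not pass. With 1 overlapping unnamed transcript added, B230354K17Rik had 0.75 and lost its call (adjusted p = 0.0512 by edgeR). B230354K17Rik, 2510016D11Rik and A630072M18Rik lost their calls with library totals from the FPKM values. Of the 5 that fell, 2410018L13Rik fell by 0.93 (adjusted p = 0.0438 by edgeR) and 4930563E22Rik, beside the Mediator subunit gene Med31, fell by 0.96 (adjusted p = 0.0410 by edgeR). C030015E24Rik, inside an intron of the potassium channel subunit gene Kcnip4, had 8.54, 5.86 and 9.30 CPM in HBO, 7.58, 9.63 and 11.1 CPM in injury and 19.3, 16.7 and 19.6 CPM in control, with a log2 change of -1.22 in HBO against control (adjusted p = 0.0365 by edgeR). 4930426D05Rik, near Klhl14, fell by 2.03 (adjusted p = 0.0441 by edgeR). 4933407K13Rik fell by 0.83 (adjusted p = 0.0456 by edgeR), but its log2 change was 0.070 with overlapping unnamed transcripts added.

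Many calls were lost on leaving out 1 library, also where that library lay outside the comparison. Such a fit has fewer libraries from which to estimate the spread. A lost call therefore does not show that the library left out had carried it. Without control replicate 1 or control replicate 2, 0 of the 18 named injury calls and 0 of the 13 named HBO calls remained. Without injury replicate 1, 2 and 3, 0, 1 and 6 injury calls remained and 9, 1 and 2 HBO calls. Without control replicate 3, 6 and 0 remained. Without HBO replicate 1, 2 and 3, 12, 15 and 12 injury calls and 5, 0 and 1 HBO calls remained. The direction held in all of these fits, and C430049B03Rik kept its injury call in 6 of 9 with a log2 change of 3.27 to 3.99.

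A microRNA or small nucleolar RNA gene lay on the same strand within 21 of the RIKEN-named genes. In injury against control 20 of these hosts were tested, F630028O10Rik and 1110038B12Rik rose and none of the other 18 passed, where 6.06% of all features were called. In HBO against control 1 of the 20, F630028O10Rik, was called, where 4.29% of all features were. The median log2 change of the 20 hosts in injury against control was 0.16, and that of all features was 0.01. In HBO against control these medians were 0.20 and -0.0039. 2410006H16Rik, which spans Snord49a, Snord49b and Snord65, had 66.4, 79.5 and 35.6 CPM in HBO, 117, 91.3 and 70.9 CPM in injury and 40.5, 22.2 and 47.2 CPM in control. Its injury libraries lay above its control libraries, with a log2 change of 1.34 (SE 0.36, adjusted p = 0.0580 by edgeR), which did not pass. A330023F24Rik, the miR-29 precursor, had 168, 244 and 167 CPM in HBO, 150, 183 and 202 CPM in injury and 254, 338 and 243 CPM in control, with no overlap between injury and control. Its log2 change of -0.64 did not pass (adjusted p = 0.0948 by edgeR).

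The microRNA hosts 2610203C20Rik, 6720427I07Rik, C130071C03Rik and 5330434G04Rik did not pass the test. 2610203C20Rik, the miR-100, let-7a-2 and miR-125b-1 host, had 491, 508.5 and 555 CPM in HBO, 409, 482 and 531.5 CPM in injury and 331, 556 and 406 CPM in control. Its log2 change of 0.14 in injury against control did not pass, and it was -0.083 with library totals from the FPKM values. 6720427I07Rik, the let-7d host, had a log2 change of 0.25 and C130071C03Rik, the miR-9-2 host, one of -0.21, and 5330434G04Rik, the miR-325 host, one of -0.24; none passed. The values for C130071C03Rik ranged from 24.3 CPM in injury replicate 1 to 95.2 CPM in injury replicate 2, so the libraries of its groups overlapped widely. 2610307P16Rik is a long gene on chromosome 13 that spans Mir6368. It had 4.27, 13.8 and 10.9 CPM in HBO, 13.3, 1.16 and 6.64 CPM in injury and 0.379, 1.59 and 0 CPM in control. Its log2 change of 3.37 did not pass (adjusted p = 0.0838 by edgeR), and was 1.86 (adjusted p = 0.0115) with 3 overlapping unnamed transcripts added.

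**Figure D4:**
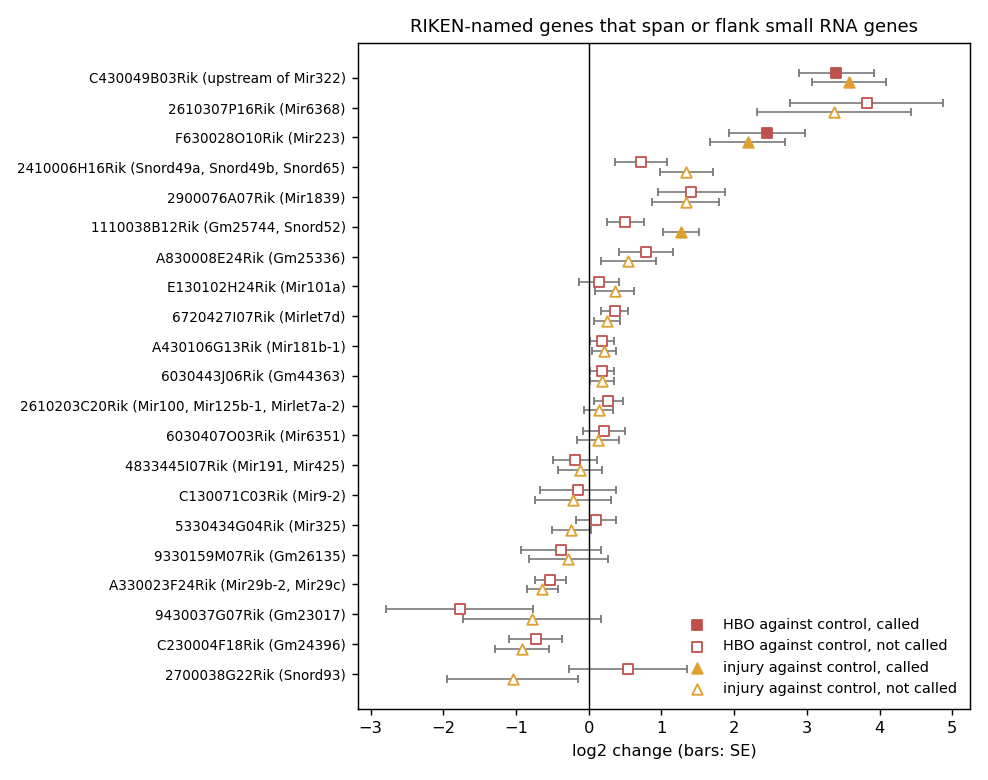
Log2 change of the 20 tested RIKEN-named genes that span a small RNA gene and of C430049B03Rik upstream of Mir322, with HBO against control as squares and injury against control as triangles, filled where called, and bars of 1 SE. C430049B03Rik, F630028O10Rik and, for injury, 1110038B12Rik are filled.

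The gene with the most counts differed widely between libraries of the same group. 1700020I14Rik, or Cyrano, is known for a long near-complete miR-7 site that directs decay of that microRNA. The site found in its 8300-base listed transcript on chromosome 2 is shown beside the microRNA because the gene is known for it. Beyond the seed, 13 more bases of the microRNA match the site when a gap is left in the site beside the seed match. The last base of the microRNA was not compared. Capitals mark the seed and its match.
miR-7a-5p: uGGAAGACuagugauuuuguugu
1700020I14Rik site: aacaacaaaatcaccaatGTCTTCCa
The gene had 2036, 305 and 353 CPM in HBO, 332, 1331 and 366 CPM in injury and 2518, 2313 and 436 CPM in control. Control replicates 1 and 2 and 1 library in each injured group were high, and the others were low, so the groups overlapped. The log2 change in injury against control was -1.38 (SE 0.91, adjusted p = 0.360 by edgeR). Almost all its counts came from that transcript, 99.3% to 99.9% in each library, and 1 overlapping unnamed transcript left the same libraries high. Leaving this gene out, the summed level of the other RIKEN-named genes was 9788 to 10238 CPM in HBO, 9704 to 10678 CPM in injury and 10095 to 10261 CPM in control.

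4933431E20Rik, on the other strand of Gstm5 and Eps8l3, was uneven in another way. It had 301, 343 and 314.5 CPM in HBO, 38.3, 387 and 394 CPM in injury and 578, 411 and 431.5 CPM in control, and injury replicate 1 stood apart. An unnamed overlapping transcript held 159 CPM in injury replicate 1, and with 4 such transcripts added the gene stood at 229.8 CPM there. Among its 12 listed transcripts, the share of 1 transcript of 5407 bases was 93.4% in control replicate 1 and 0.0843% in control replicate 3, while the sum over the 12 was 578 and 431.5 CPM. The transcript that held most of the counts thus differed between libraries. The 4 genes chosen for spread were ranked by the ratio of highest to lowest library within a group. That ratio is infinite where a library is at 0, and such ties were ordered by mean count. By that rule each had 1 library at 0. They were 4933421O10Rik (HBO replicate 3), D030028A08Rik (injury replicate 1), 9430037G07Rik (HBO replicate 1) and 4930594M22Rik (control replicate 2). With overlapping unnamed transcripts added, these libraries held 57.8, 3.03, 26.8 and 15.9 CPM, in that order.

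**Figure D5:**
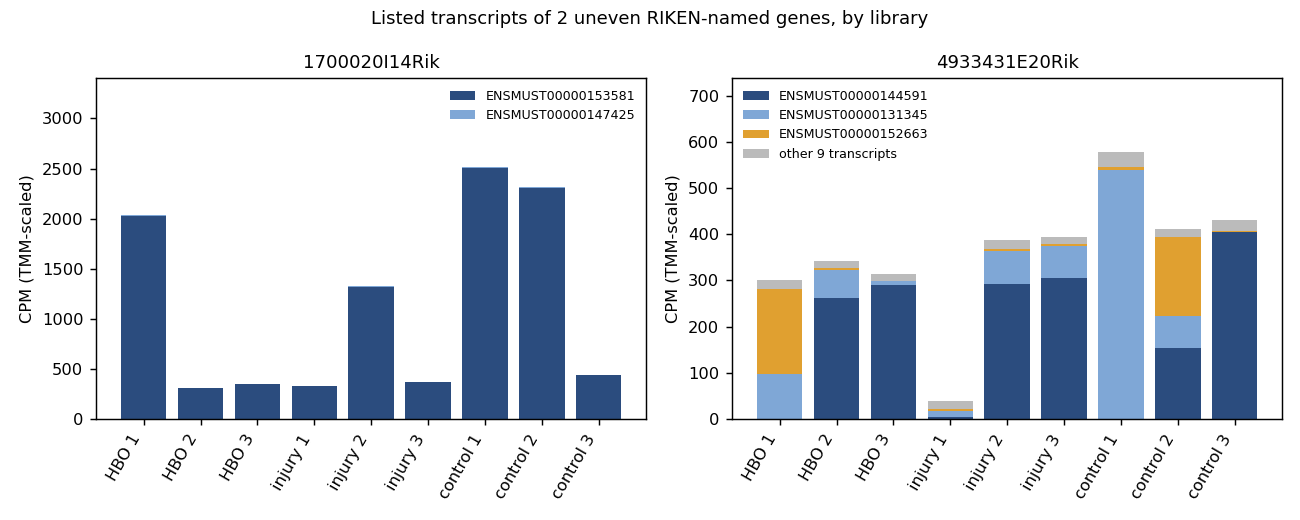
Level of each listed transcript of 1700020I14Rik and 4933431E20Rik in every library as stacked TMM-scaled CPM. For 1700020I14Rik the total is 2036 CPM in HBO replicate 1 and 305 CPM in HBO replicate 2, and for 4933431E20Rik the leading transcript changes between libraries.

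C230004F18Rik, or Cdr1os, on chromosome X, is the host of a well-studied circular RNA that binds miR-7 and was not itself measured here. It had 76.5, 24.7 and 60.6 CPM in HBO, 35.6, 47.0 and 59.4 CPM in injury and 101, 74.6 and 92.7 CPM in control, the injury libraries all lying under the control ones. The log2 change was -0.92 (SE 0.37, adjusted p = 0.146 by edgeR), which did not pass. 1810026B05Rik, or Chaserr, which restrains its neighbour Chd2, had 119, 161 and 101 CPM in HBO, 53.8, 134 and 166 CPM in injury and 93.9, 105 and 125 CPM in control. Its groups overlapped, with a log2 change of 0.13 (adjusted p = 0.856 by edgeR), which was -0.053 with library totals from the FPKM values. At the minimum of the rule, 2310068J16Rik and C330013E15Rik had a mean of 5 counts and were kept, and 4930579K19Rik and 1700030I03Rik had 4.78 counts and were not.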

How the data were processed

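Per the submitters' processing notes, reads were aligned with HISAT2 to GRCm38. How reads were counted, and whether by strand, is not stated there. The deposited values, per the file headers, are a whole-number count and an FPKM for each long noncoding transcript. Counts were summed per Ensembl gene name (67924 features, 492 RIKEN-named genes). The members, lists and tests were chosen with earlier results of these data known. All 9 libraries entered one edgeR 4.0.16 fit by group with TMM scaling, run in R 4.3.3 after filterByExpr at 10 counts and tested by quasi-likelihood, which tested 26602 features; SEs come from the test statistic. CPM values are scaled by TMM. Named genes were the called ones (up to 12 each way), the 3 smallest p each way for HBO against injury, the 8 highest in control FPKM, up to 8 hosts of small RNAs, 7 listed by name and the 4 most uneven. Alternatives included DESeq2 1.42.0, a replicate block and leaving out each library. Summing overlapping unnamed transcripts (reciprocal span overlap of 0.5) was chosen after seeing the data. The fit was tested on simulated counts. Every pair of replicates differed beyond counting noise, with a chi-square of 7.93 to 23.0 for each degree of freedom. Intervals cover counting error only. The position of 1 named gene is not reported here.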

Additional observations from a re-analysis of the deposited data

How the results depend on the processing

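RLE scaling changed the count of RIKEN-named calls in none of the 3 comparisons. In injury against control, 20 RIKEN-named calls (1611 over all features) became 2 (308) with no filter, 51 (3903) with DESeq2, and 0 to 20 (34 to 1814) on leaving out 1 library. In HBO against control, 13 calls (1140) became 1 (204) with no filter, 37 (3293) with DESeq2, 2 (331) when the 2 groups were fitted alone, and 0 to 11 (20 to 1037) on leaving out 1 library. In HBO against injury, 0 calls (4) stayed 0 except for 1 without injury replicate 1, and all features gave 2 with library totals from the FPKM values, 49 with DESeq2, 2 away from coding exons and 2 to 19 on leaving out 1 library. Replicate numbers are shared by the groups, but same-numbered libraries did not deviate together (9 correlations, -0.0575 to 0.0534), and 2 of 9 libraries had their highest correlation with a library of their own number. With a replicate block, the counts were 0 (7 over all features) in injury against control, 0 (2) in HBO against injury and 0 (9) in HBO against control. The cause of these changes was not tested.

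Of 31 named calls, 548 of 549 refits kept the sign and 246 the call. The exception was 4933407K13Rik in HBO against control (0.070 with overlapping transcripts added). Among uncalled named results, these log2 changes turned sign. With library totals from the FPKM values they were -0.053 for 1810026B05Rik, -0.083 for 2610203C20Rik, -0.15 for 4933421O10Rik, -0.037 for 6030443J06Rik and -0.14 for C330006A16Rik. With transcripts as listed they were -0.088 for 1810026B05Rik, 0.11 for 4933431E20Rik and 0.26 for 5330434G04Rik. With overlapping transcripts added they were 1.49 for 4930594M22Rik, 0.16 for D030028A08Rik and, in HBO against injury, -0.034 for 2810002D19Rik. For 4930594M22Rik they were 0.012 with no filter, 0.21 with the replicate block and 0.0063 in 2 groups alone, and for 4933421O10Rik -0.050 with the block. On leaving out 1 library, the log2 change crossed zero and ranged from -0.20 to 0.48 for 1810026B05Rik, -0.022 to 0.35 for 2610203C20Rik, -0.58 to 3.21 for 4930594M22Rik, -0.29 to 0.30 for 4933421O10Rik, -0.47 to 0.026 for 5330434G04Rik, -1.04 to 0.12 for C130071C03Rik, -0.030 to 0.21 for C330006A16Rik and -0.50 to 0.52 for D030028A08Rik. The median RIKEN-named gene had 20.4 counts per library.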
